A study of Mus musculus with 9 samples.

Results

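ATP-binding cassette (ABC) genes encode a large family whose proteins bind and split ATP, and their mRNA levels were measured in mouse macrophages given JHU083 or WGFT17. The members were all genes of the deposited table whose symbol starts with Abca to Abcg followed by a digit. There were 46 of 28998 genes: 13 of subfamily A, 9 of B, 10 of C, 4 of D, 1 of E, 3 of F and 6 of G. All 46 were above 0 in at least 1 library. A mean of at least 1 FPKM (fragments scaled to transcript length and library depth) over the 9 libraries was required for a test, and 27 members reached it: 5 of A, 7 of B, 4 of C, 4 of D, 1 of E, 3 of F and 3 of G. The cells were wild-type (WT) macrophages (BMDMs) of C57 mice, grown from bone marrow monocytes for 7 days with GM-CSF, a myeloid growth factor. They formed 3 groups of 3 libraries: Control, JHU083 and WGFT17, with 36 h of drug in the treated groups. As background, JHU083 releases DON, a blocker of enzymes that use glutamine, while WGFT17 is a code name. No dose is given by the labels, nor what Control cells received or for how long they were kept, so culture time and drug cannot be told apart in either comparison with Control. The labels call the cells an adherent cell line and do not say that replicates were separate cultures or animals, so p-values measure the spread between these libraries, which may be technical.

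Most ABC proteins are membrane pumps that use ATP to move lipids, peptides, metal complexes or conjugated organic anions across a membrane. Subfamily A and Abcg1 are known for moving lipids, and in macrophages ABCA1 and ABCG1 hand cholesterol to apolipoprotein A-I and to HDL under control of the nuclear receptor LXR. Subfamily B holds the drug pump P-glycoprotein and transporters of mitochondria, C the pumps of glutathione conjugates, leukotrienes and cyclic nucleotides, and D the fatty acid importers of peroxisomes. Subfamilies E and F have no membrane part and act on ribosomes and translation.

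Estimated counts summed to 56624220 to 69112134 per library, with about 4 counts to a read pair, and 0.207% to 0.256% of them fell on the family. All 9 macrophage markers were above 0 in every library, with sums of 9672 to 12090 FPKM that were mostly Lyz2 (7702 to 10047). Single markers differed between groups. In WGFT17 against Control, Mrc1 (115 to 60.7 FPKM; log2 change -1.03), Itgam (-0.55) and Csf1r (-0.36) were lower and Fcgr1 (0.23) and Mertk (0.24) higher by the test described below. In JHU083 against Control, Mertk was higher (0.42) and Cd68 (-0.19) and Cd14 (-0.26) lower. Genes of other tissues separated the libraries before any test. Over 8 photoreceptor genes the sums were 6.44 to 8.56 FPKM in Control, 0.17, 0.12 and 7.39 in JHU083 replicates 1, 2 and 3, and 0.08 to 0.15 in WGFT17. Heart muscle genes ranged from 49.8 to 58.2 in Control and from 0.21 to 0.23 in WGFT17, and JHU083 replicates 1, 2 and 3 had 39.6, 0.25 and 70.3. Hepatocyte genes stood at 419 to 468 FPKM in Control, at 150, 67.8 and 239 in the JHU083 replicates and at 92.1 to 210 in WGFT17. By the photoreceptor sum JHU083 replicate 3 sat with Control, and by the heart muscle sum only JHU083 replicate 2 was as low as WGFT17. By hepatocyte genes all 3 JHU083 libraries lay below Control. Lists of cells that a marrow culture can hold also differed. Stromal genes summed to 1349 to 1446 FPKM in Control, 1041, 961 and 873 in JHU083 replicates 1, 2 and 3 and 227 to 237 in WGFT17. Smooth muscle and pericyte genes summed to 1230 to 1331, 808 to 1036 and 130 to 158. Neutrophil genes summed to 25.1 to 33.6, 5.86 to 8.02 and 1.16 to 2.26, and dendritic cell genes to 32.2 to 43.2, 34.1 to 43.0 and 8.32 to 9.39. The dendritic cell sum was nearly all Itgax (31.59 to 42.46, 33.33 to 41.79 and 7.48 to 8.71), whereas Ccr7 was at 0.06 to 0.08, 0.11 to 1.07 and 0.43 to 0.96 FPKM. Megakaryocyte genes stood at 270 to 303, 288 to 316 and 204 to 223 FPKM, nearly all of it Pf4 (201.64 to 306.13 over the libraries). Over the same groups, endothelial genes stood at 9.39 to 10.4, 10 to 11.8 and 11.9 to 13.5, and erythroid genes at 5.24 to 6.6, 5.75 to 11.8 and 4.01 to 10.9. The higher endothelial sum in WGFT17 was that of Vwf, at 2.75 to 3.43 FPKM in Control and 9.46 to 10.51 in WGFT17. Pecam1, Cdh5 and Emcn were lower in WGFT17 than in Control. In bulk RNA, fewer cells of a type and less RNA per cell cannot be told apart. JHU083 against Control can be set within the photoreceptor-carrying libraries only through JHU083 replicate 3, and WGFT17 against JHU083 within the others through JHU083 replicates 1 and 2. For WGFT17 against Control no such value can be had, and that split and the group cannot be told apart. By the heart muscle sum only JHU083 replicate 2 could be set beside WGFT17, and no fit with that library alone was made.

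Promoters are shown for 4 members on which the results turn: Abcc4 and Abcc5, which were higher in WGFT17, and Abca8b and Abca9, chromosome 11 neighbours whose levels differed in opposite directions. Each is the strand of the gene from 250 bases before to 50 bases after a RefSeq start in GRCm38.p6. Capitals mark matches, on either strand, to an E-box (CACGTG), the core of an antioxidant response element (TGACNNNGC) or a C/EBP palindrome (TTGCGCAA). In Abca8b the E-box and the antioxidant core overlap by a pair of bases. In Abcc4 the E-box comes first and the antioxidant core, on the other strand, comes later.
Abcc4, chr14:118706170-118706469, minus strand: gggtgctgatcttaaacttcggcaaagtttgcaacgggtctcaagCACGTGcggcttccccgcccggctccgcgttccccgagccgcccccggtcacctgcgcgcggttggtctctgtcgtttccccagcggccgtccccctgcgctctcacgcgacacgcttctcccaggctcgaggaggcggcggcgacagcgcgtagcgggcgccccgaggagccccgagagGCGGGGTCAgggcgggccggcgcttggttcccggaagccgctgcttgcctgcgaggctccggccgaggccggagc
Abcc5, chr16:20426345-20426644, minus strand: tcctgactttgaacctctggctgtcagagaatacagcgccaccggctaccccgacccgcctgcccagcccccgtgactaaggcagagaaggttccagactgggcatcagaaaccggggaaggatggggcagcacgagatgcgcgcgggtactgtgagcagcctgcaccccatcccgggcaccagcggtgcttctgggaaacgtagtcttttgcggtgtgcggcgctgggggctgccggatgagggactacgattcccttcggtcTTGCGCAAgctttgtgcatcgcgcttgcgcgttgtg
Abca8b, chr11:109995796-109996095, minus strand: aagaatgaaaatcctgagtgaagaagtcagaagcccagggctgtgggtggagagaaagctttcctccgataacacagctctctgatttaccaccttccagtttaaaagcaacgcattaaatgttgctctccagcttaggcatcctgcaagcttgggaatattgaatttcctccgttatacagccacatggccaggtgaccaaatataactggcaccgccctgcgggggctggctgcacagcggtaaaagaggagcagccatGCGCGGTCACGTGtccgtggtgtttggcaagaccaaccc
Abca9, chr11:110168104-110168403, minus strand: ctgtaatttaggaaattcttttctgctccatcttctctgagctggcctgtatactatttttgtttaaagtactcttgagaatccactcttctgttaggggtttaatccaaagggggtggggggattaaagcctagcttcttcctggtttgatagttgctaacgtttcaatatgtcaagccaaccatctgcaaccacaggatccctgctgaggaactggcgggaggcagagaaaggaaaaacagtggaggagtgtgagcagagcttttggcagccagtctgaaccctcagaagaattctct
None of these motifs is in the Abca9 window. The table of RefSeq promoters held 41 windows for 34 of the 46 members, and none for Abcc1 or Abcg1. Of those 41, 5 held the E-box (12.2%; 7.15% of all 32851 promoters), 7 the antioxidant core (17.1%; 12.4%) and 1, that of Abcc5, the C/EBP palindrome (2.44%; 0.183%). A GC box (GGGCGG) was in 21 (51.2%; 35.7%). The C/EBP-ATF core TGATGNAAT (0.965% of all promoters), the AP-1 site TGANTCA (7.81%) and 1 exact form of an LXR-type repeat, AGGTNA and again AGGTNA after 4 bases (0.0974%), were in none of the 41. LXR-type repeats with other letters were not searched for and would be missed, also in the Abca1 window. The longer E-box TCACGTGA, in 0.974% of all promoters, was found in that of Abca8a. These are matches of letters within 300 bases, not binding sites.

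Across the 3 comparisons the family changed least in JHU083 and most in WGFT17. Against Control, 7 of the 27 tested members were called in JHU083 (25.9%) by edgeR's quasi-likelihood test at an adjusted p under 0.05, a share close to the 24.0% of all 11798 tested genes. Without JHU083 replicate 3 the count was 8, while 3731 of all tested genes were called in place of 2831. Of the 7 in the main fit, higher were 6 (Abca2, Abca9, Abcc5, Abcd2, Abcd3 and Abcg3; 22.2%, against 11.5% of all genes) and lower 1 (Abcf2; 3.70%, against 12.5%). In WGFT17 against Control 22 were called (81.5%; 58.0% of all genes), 16 higher (59.3%; 28.0%) and 6 lower (22.2%; 30.0%). The lower ones included Abca9, Abcb1b, Abcb10, Abcg2 and Abcg3, and Abca1, Abcb4, Abcd4, Abcf1 and Abcf2 did not pass. Between the drugs, 20 members differed (74.1%; 44.7%), with 14 higher in WGFT17 (51.9%; 20.4%) and 6 lower (22.2%; 24.4%). Without JHU083 replicate 3 the count was again 20, while 5713 of all tested genes were called in place of 5277. The 6 lower ones were Abca1, Abca9, Abcb1b, Abcd4, Abcg2 and Abcg3. The median log2 change of the tested members was 0.08, 0.21 and 0.18 in these comparisons, and that of all tested genes 0.0037, 0.0044 and 0.0062. Both comparisons with Control share its 3 libraries. Where JHU083 replicate 3 stands alone for its group below, the spread is taken from the other groups. JHU083 libraries spread more, with an SD of the summed family FPKM of 15.6, against 1.36 in Control and 3.28 in WGFT17. Adjusted p-values given with that library alone can therefore be too small. Abcb1a passed the minimum level through the treated groups, with a Control mean of 0.837 FPKM.

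**Figure D1:**
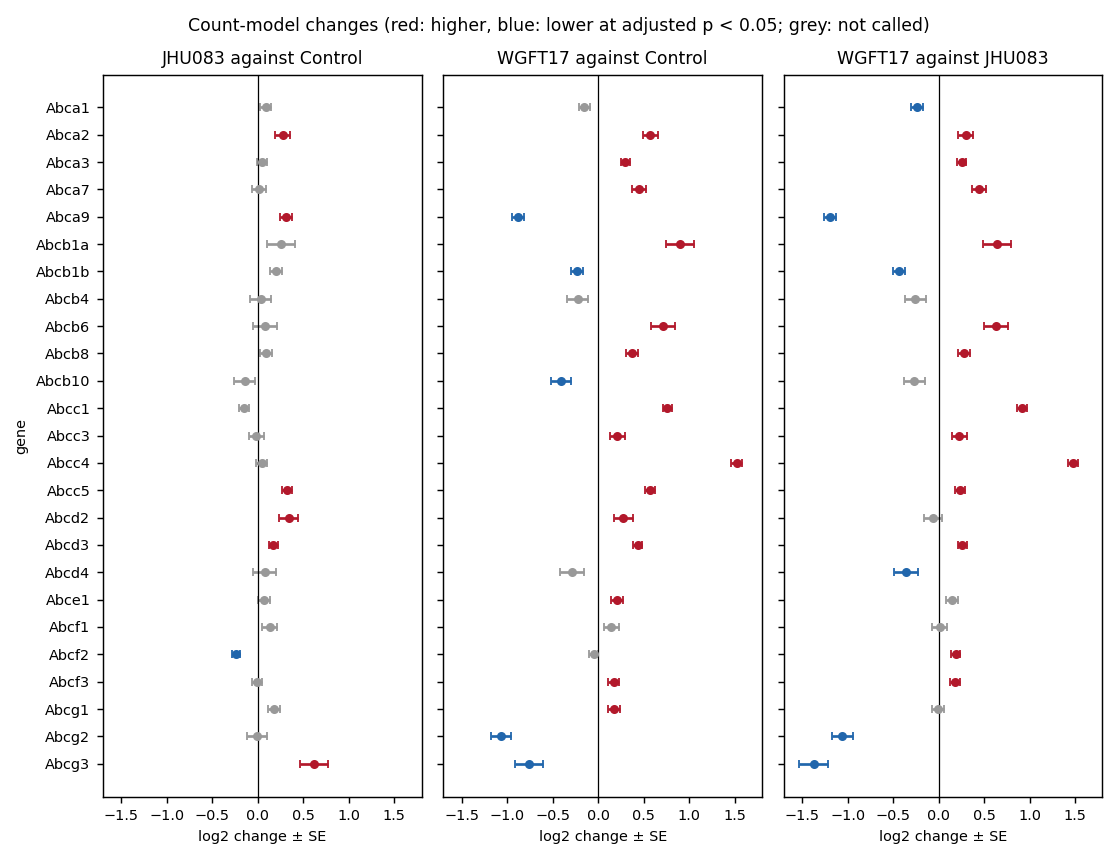
Log2 change (x axis, points, bars ± SE of the edgeR fit) of 25 of the tested ABC genes (y axis) in each comparison; red and blue mark higher and lower calls at an adjusted p under 0.05, grey the others. JHU083 against Control has 7 coloured points, and WGFT17 against Control has 20, led by Abcc4 at 1.52.

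The FPKM values and the count fit differ slightly in scale. On the scale of log2(FPKM + 0.1), the median of all tested genes was 0.093 above Control in JHU083 and 0.112 above it in WGFT17, whereas the count fit centres the genes near 0. Log2 changes below are from the count fit and so stand relative to that shift. A limma fit of log2(FPKM + 1) called 8 members higher and none lower in JHU083 against Control. Median-ratio (RLE) and upper quartile factors each gave 6 higher and 2 lower there. Over all genes these 3 fits called 3517, 2821 and 2793, against 2831 in the main fit. A fit with no minimum FPKM, which tests all 46 members and more genes, gave 3 and 3, with 1891 genes called in all. Among the 27 members of the main fit, Abcf2 was the only lower one there, and the calls of Abca2, Abcd2 and Abcd3 were lost. Only 2 of the 7 JHU083 calls, those of Abca9 and Abcc5, held under every alternative tried.

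**Figure D2:**
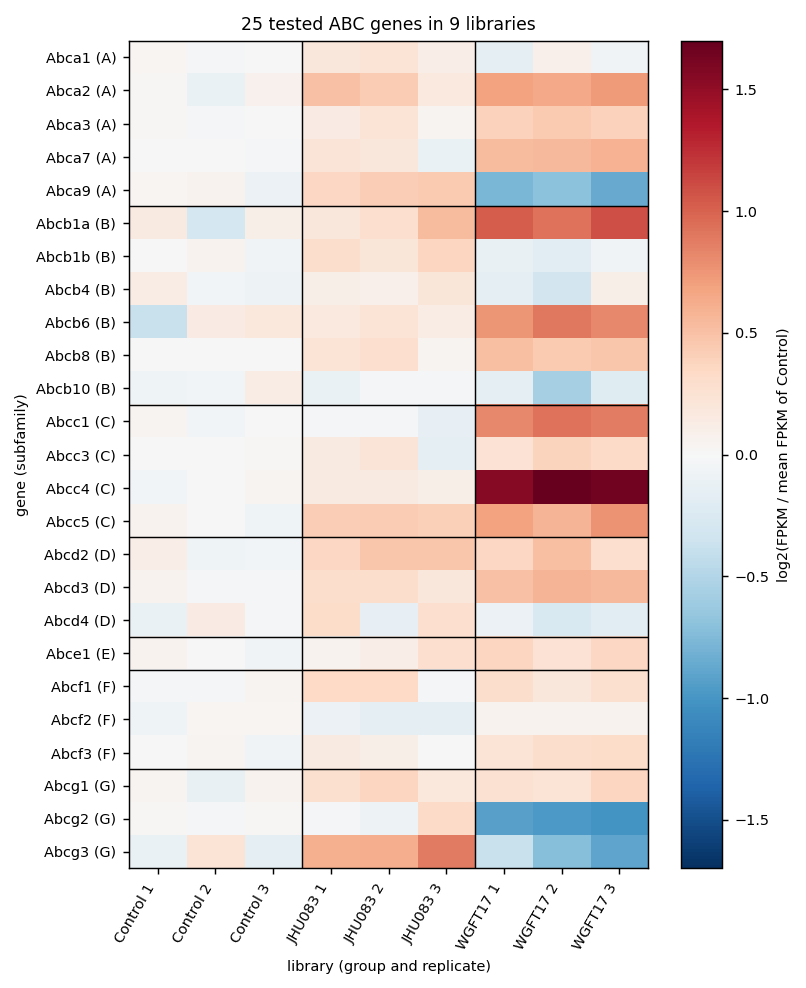
Log2 of FPKM over the mean FPKM of Control (colour scale) for 25 of the tested ABC genes (rows, subfamily in brackets) in the 9 libraries (columns). The WGFT17 columns show the deepest red for Abcc4 and the deepest blue for Abcg2, Abcg3 and Abca9.

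The 4 tested members of subfamily C, the pumps of organic anions and conjugates, rose in WGFT17. All 4 were higher than in Control (28.0% of all genes were) and than in JHU083 (20.4%). Their median log2 change was 0.66 against Control and 0.58 against JHU083, with 58.0% and 44.7% of all genes called in either direction. Untested Abcc2, Abcc6, Abcc8 and Abcc9 lay below every Control library in WGFT17, at Control means of 0.443 FPKM or less. Untested Abcc10 lay above Control, and Abcc12 overlapped it. Abcc4 (MRP4, which exports cyclic nucleotides and prostaglandins; chromosome 14, 118482692 to 118706219) had FPKM of 5.00, 5.16 and 5.34 in the Control libraries, 5.77, 5.77 and 5.53 in those of JHU083 and 15.11, 16.76 and 16.13 in those of WGFT17. All 3 WGFT17 libraries lay far above the other 6, and those of JHU083 lay just above Control. The log2 change was 1.52 in WGFT17 against Control (SE 0.0577; 2.87-fold; edgeR adjusted p = 2.74e-09), 1.48 against JHU083 (adjusted p = 4.47e-09) and 0.04 in JHU083 against Control (adjusted p = 0.615). It was the largest change of any tested member, and the difference from JHU083 was 1.46 without JHU083 replicate 3. Abcc1 (MRP1, which exports leukotriene C4 and glutathione conjugates; chromosome 16, 14361558 to 14475737) had FPKM of 14.24, 13.39 and 13.70 in the Control libraries, 13.58, 13.64 and 12.49 in those of JHU083 and 24.34, 26.09 and 25.13 in those of WGFT17. WGFT17 stood apart, while Control and JHU083 overlapped. The log2 change came to 0.76 in WGFT17 against Control (SE 0.0525; 1.7-fold; edgeR adjusted p = 3.33e-07) and 0.91 against JHU083 (adjusted p = 8.99e-08). In JHU083 against Control it was -0.15 (adjusted p = 0.0568). DESeq2 (adjusted p = 0.0126) and edgeR with RLE or upper quartile factors (0.0389 and 0.033) called it, while 14 of 18 alternatives did not. With JHU083 replicate 3 alone the change was -0.23.

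Abcc5 (MRP5, also an exporter of cyclic nucleotides; chromosome 16, 20331303 to 20426394) stepped up in both drug groups. Its FPKM were 5.67, 5.47 and 5.15 in the Control libraries, 7.26, 7.33 and 7.20 in those of JHU083 and 8.73, 8.11 and 9.19 in those of WGFT17. The 3 groups did not overlap. Its log2 change was 0.33 in JHU083 against Control (SE 0.0555; edgeR adjusted p = 0.00288), 0.57 in WGFT17 against Control (adjusted p = 6.01e-06) and 0.24 between the drugs (adjusted p = 0.00427). With JHU083 replicate 3 alone, the JHU083 change was 0.32 (adjusted p = 0.0124). Abcc3 (MRP3, a pump of glucuronides and bile salts) had the highest level of any member, with 37.8, 39.9 and 47.2 FPKM as means of Control, JHU083 and WGFT17. Its log2 changes in WGFT17, 0.21 against Control (adjusted p = 0.0472) and 0.23 against JHU083 (adjusted p = 0.0443), were near the threshold. The call against Control was lost without any 1 of its 6 libraries (adjusted p of 0.0503 to 0.149). The call against JHU083 was lost without JHU083 replicate 3 (0.13, adjusted p = 0.0552), WGFT17 replicate 2 (0.19, 0.145) or WGFT17 replicate 3 (0.23, 0.0938). JHU083 replicate 3 had 33.83 FPKM of Abcc3 where replicates 1 and 2 had 41.96 and 44.03, and against Control that library alone was lower (-0.25, adjusted p = 0.0196). Abcc10 stayed under the minimum, at 0.803, 1.12 and 0.983 FPKM.

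**Figure D3:**
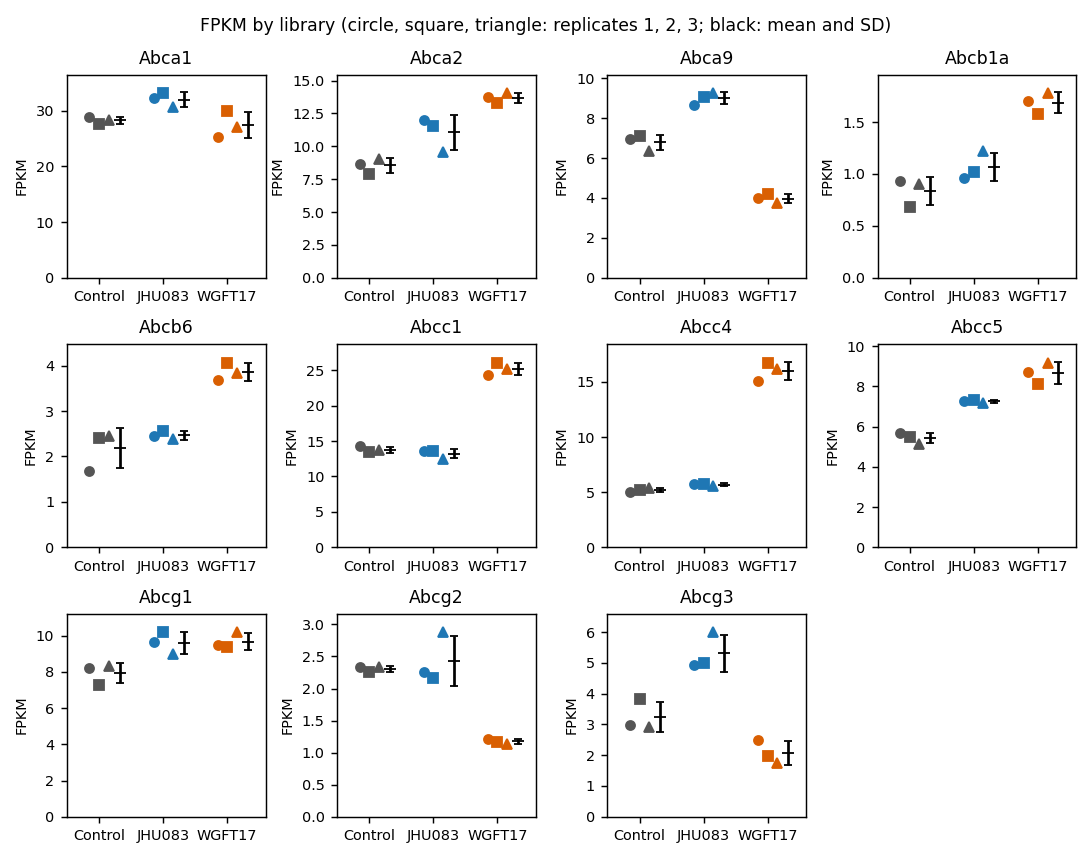
FPKM (y axis, from 0) of 11 ABC genes in the 3 groups (x axis); circle, square and triangle are replicates 1, 2 and 3, and black marks give mean and SD. The WGFT17 points lie above all others for Abcc1, Abcc4, Abcc5, Abca2, Abcb1a and Abcb6, and below all others for Abca9, Abcg2 and Abcg3.

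Genes that make or use glutathione and leukotrienes, the cargo and cosubstrates of subfamily C, were called in both directions in WGFT17. Of 17 tested, 9 were higher and 5 lower than in Control (58.0% of all genes were called), and 10 higher and 4 lower than in JHU083 (44.7%), with median log2 changes of 0.34 and 0.34. In JHU083 against Control, with 24.0% of all genes called, none was higher and 3 were lower (median -0.10), namely Slc7a11, Gsta4 and Gstp1. Slc7a11, the cystine importer, went from 1.1 FPKM in Control and 0.907 in JHU083 to 9.37 in WGFT17 (log2 change against Control 2.98, SE 0.112, edgeR adjusted p = 2.6e-09). Gclm, the modifier subunit of the enzyme that starts glutathione synthesis, went from 10.1 and 11.5 to 36.4 FPKM (1.74, adjusted p = 1.85e-09). Its catalytic partner Gclc changed by 0.92 (adjusted p = 1.91e-06). On the leukotriene side, Ltc4s, leukotriene C4 synthase, fell from 7.04 and 5.54 to 2.12 FPKM (-1.83, adjusted p = 2.15e-05). Alox5, the lipoxygenase that starts leukotriene synthesis, fell as well (-0.91, adjusted p = 0.000788), while Alox5ap did not pass (-0.02, adjusted p = 0.788). Gsta4, a glutathione transferase, differed most between the drugs after Slc7a11 (3.35), with 1.22 FPKM in JHU083 and 7.34 in WGFT17 (2.57, adjusted p = 1.25e-05). Gstp1 fell in JHU083 by 0.46 on the log2 scale (adjusted p = 0.00581).

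The cholesterol exporters Abca1 and Abcg1 moved little. Abca1 (chromosome 4, 53030787 to 53159895) had FPKM of 28.79, 27.60 and 28.35 in the Control libraries, 32.21, 33.17 and 30.58 in those of JHU083 and 25.32, 29.94 and 27 in those of WGFT17. JHU083 lay above both other groups, and WGFT17 overlapped Control. In the count fit only the difference between the drugs passed (-0.24 in WGFT17 against JHU083, SE 0.0639, edgeR adjusted p = 0.0106), and it was lost without WGFT17 replicate 1 (-0.18, adjusted p = 0.0513) and with JHU083 replicate 3 alone (-0.18, adjusted p = 0.104). Against Control the log2 changes were 0.09 in JHU083 (adjusted p = 0.357) and -0.15 in WGFT17 (adjusted p = 0.0622). The latter passed in 5 of 17 alternatives, among them without WGFT17 replicate 2 (-0.22, adjusted p = 0.0102) and in DESeq2 (adjusted p = 0.036). Abcg1 (chromosome 17, 31057675 to 31117988) had FPKM of 8.23, 7.30 and 8.31 in the Control libraries, 9.64, 10.19 and 9.00 in those of JHU083 and 9.47, 9.36 and 10.20 in those of WGFT17. Both drug groups lay above Control and overlapped each other. The log2 change came to 0.18 in JHU083 (SE 0.069, edgeR adjusted p = 0.0829), 0.17 in WGFT17 (SE 0.0689, adjusted p = 0.0486) and -0.0044 between them (SE 0.0689, adjusted p = 0.964). The WGFT17 call was lost without Control replicate 1 or 2 (adjusted p = 0.0576 and 0.196) and without WGFT17 replicate 1, 2 or 3 (0.0754, 0.0684 and 0.167). The JHU083 change of Abcg1 passed in 5 of 18 alternatives. These were without JHU083 replicate 3 (0.22, adjusted p = 0.031), with library totals alone (0.0368), at a mean of at least 5 FPKM (0.0424) and in limma on log2(FPKM + 1) or log2(FPKM + 0.1) (0.0249 and 0.0294).

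Other genes of LXR signalling and sterol export, 21 of them tested, were called in both directions, where 24.0%, 58.0% and 44.7% of all genes were called in these comparisons. In JHU083 against Control 5 were higher and 3 lower (median log2 change 0.13), in WGFT17 against Control 12 higher and 5 lower (0.35), and between the drugs 9 higher and 5 lower in WGFT17 (0.17). Npc1, which moves cholesterol out of lysosomes, had 31.6, 34.2 and 84.0 FPKM in Control, JHU083 and WGFT17 (1.30 in WGFT17 against Control, edgeR adjusted p = 5.3e-09). Smpdl3a, a phosphodiesterase gene known as an LXR target, had 105, 124 and 276 FPKM (1.28, adjusted p = 2.6e-08). Nceh1, which hydrolyses cholesterol esters, rose in JHU083 (0.34, adjusted p = 0.00101) and more in WGFT17 (0.69, adjusted p = 1.75e-07). Soat1, which stores cholesterol as esters, was higher in WGFT17 than in JHU083 (0.55, adjusted p = 5.45e-06). Mylip, an LXR-induced ubiquitin ligase, rose alike in JHU083 (0.65, adjusted p = 0.000723) and WGFT17 (0.61, adjusted p = 4.72e-05), with no call between them (adjusted p = 0.678). Lpcat3, another LXR target, which remodels phospholipids, fell in both (-0.30, adjusted p = 0.00338, and -0.56, adjusted p = 4.62e-06). Of 12 tested regulators of sterol and lysosome genes, 1 was higher and 3 lower in JHU083 against Control (median -0.13), 3 higher and 5 lower in WGFT17 against Control (-0.19), and 2 higher and 6 lower between the drugs (-0.24). Those are 4, 8 and 8 of 12, against the same shares of all genes, and the first pair lies near them. Insig1, which holds back the sterol sensor, fell in WGFT17 (-1.04, adjusted p = 5.26e-07), and Klf4, a transcription factor of myeloid cells, was higher there than in JHU083 (1.14, adjusted p = 8.2e-07). In JHU083, Mitf was higher than in Control (0.26, adjusted p = 0.0318).

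Elsewhere in subfamily A, the endosomal and lysosomal lipid transporter Abca2 (chromosome 2, 25428703 to 25448540) rose in both drug groups. Its FPKM were 8.69, 7.93 and 9.02 in the Control libraries, 12.03, 11.57 and 9.57 in those of JHU083 and 13.76, 13.31 and 14.06 in those of WGFT17. Only JHU083 replicate 3 came near Control. The log2 change of Abca2 was 0.57 in WGFT17 against Control (SE 0.0805, edgeR adjusted p = 0.000112) and 0.30 against JHU083 (adjusted p = 0.0109). In JHU083 against Control it was 0.28 (adjusted p = 0.0305), a call lost without Control replicate 1 or 2 (adjusted p = 0.062 and 0.121) or JHU083 replicate 1 or 2 (0.102 and 0.0932). With JHU083 replicate 3 alone it was 0.07 (adjusted p = 0.515). Abca3, the phospholipid pump of lamellar bodies, had means of 11.5, 12.7 and 15.2 FPKM and rose in WGFT17 against both groups (0.30, adjusted p = 0.000501, and 0.25, adjusted p = 0.00207). Abca7, a phospholipid transporter linked to phagocytosis, had means of 6.16, 6.62 and 9.08 FPKM and likewise rose (0.45, adjusted p = 0.00049, and 0.44, adjusted p = 0.00074). In JHU083 its 3 libraries spread from 5.68 in replicate 3 to 7.05 and 7.14, and the log2 change against Control, 0.01 (adjusted p = 0.938), was -0.21 with replicate 3 alone (adjusted p = 0.0376).

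Abca9 was the member of subfamily A that went opposite ways in the drug groups. It lies in a run of 5 family genes on chromosome 11 (109932190 to 110337678, 405 kb), in the order Abca8b, Abca8a, Abca9, Abca6 and Abca5, all on the minus strand. Abca9 (110100749 to 110168196) had FPKM of 6.94, 7.10 and 6.37 in the Control libraries, 8.67, 9.07 and 9.27 in those of JHU083 and 3.98, 4.20 and 3.74 in those of WGFT17. The groups did not overlap, with JHU083 highest and WGFT17 lowest. The log2 change was 0.31 in JHU083 against Control (SE 0.0638, edgeR adjusted p = 0.00685), -0.88 in WGFT17 against Control (SE 0.0646, adjusted p = 5.52e-07) and -1.20 between the drugs (SE 0.0649, adjusted p = 5.57e-08). With JHU083 replicate 3 alone the JHU083 change was 0.36 (adjusted p = 0.0118), and without that library the difference between the drugs was -1.17. Its neighbours were too low to test. Abca8b, the only one of the run to be highest in WGFT17 beyond the spread of both other groups, had 0.29, 0.28 and 0.33 FPKM in the Control libraries, 0.35, 0.44 and 0.43 in those of JHU083 and 1.02, 0.89 and 0.91 in those of WGFT17. Abca6 was lowest in WGFT17, with means of 0.723, 0.530 and 0.303 FPKM, and Abca5 had means of 0.477, 0.480 and 0.373. Abca8a stood at 0.153, 0.200 and 0.210 FPKM. Of the transcript windows of 50 bases, 1.89% of those of Abca8a recur in Abca8b, and 0.205% of those of Abca9 in Abca6. Genes of this run are also known from stromal cells. Of 8 tested stromal markers, 6 were lower in JHU083 and 8 in WGFT17 than in Control (12.5% and 30.0% of all genes were), with none of the 9 listed at 0 in a whole group. Dcn and Pdgfra were not called in JHU083. Abca9 was thus higher in JHU083 while that list was lower, and lower in WGFT17 together with it. Untested Abca6 was lowest in WGFT17 too, whereas untested Abca8b was highest there. The part of stromal RNA in these values was not tested.

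**Figure D4:**
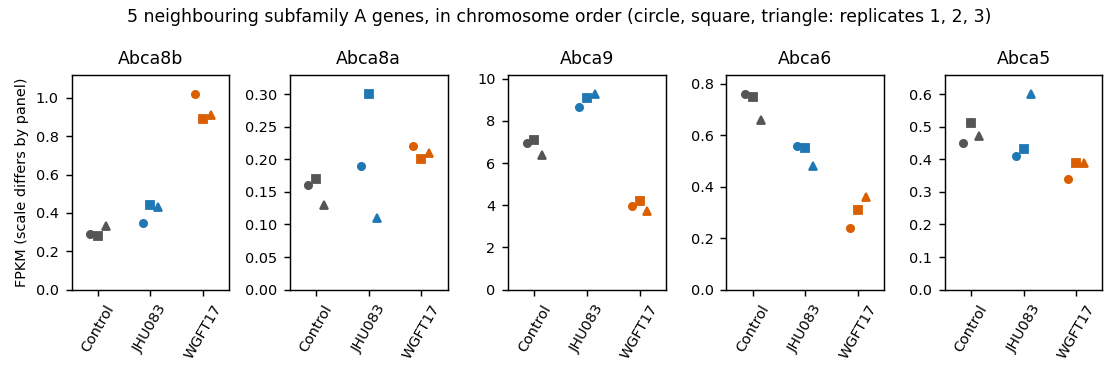
FPKM (y axis, from 0, its scale differing by panel) of the 5 neighbouring subfamily A genes of chromosome 11, in map order, in the 3 groups (x axis); circle, square and triangle are replicates 1, 2 and 3. Abca9 and Abca6 are lowest in WGFT17, and Abca8b is highest there, at 0.89 to 1.02.

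In subfamily B, 4 of 7 tested members were higher and 2 lower in WGFT17 than in Control, and none was called in JHU083 (of all genes 58.0% and 24.0% were called). The 2 genes of mouse P-glycoprotein, the multidrug efflux pump, lie side by side on chromosome 5 with Abcb4 (8660077 to 8959226, 299 kb) and differed in opposite directions. Abcb1a (8660077 to 8748575) had FPKM of 0.93, 0.68 and 0.90 in the Control libraries, 0.96, 1.02 and 1.22 in those of JHU083 and 1.7, 1.58 and 1.78 in those of WGFT17. WGFT17 lay above all others. The log2 change of Abcb1a was 0.89 against Control (SE 0.153, edgeR adjusted p = 0.000458) and 0.64 against JHU083 (SE 0.152, adjusted p = 0.00493), and with JHU083 replicate 3 alone the latter was 0.44 (adjusted p = 0.1). Abcb1b fell, with means of 3.85, 4.72 and 3.53 FPKM: -0.23 in WGFT17 against Control (adjusted p = 0.0109) and -0.43 against JHU083 (adjusted p = 0.000276). The first of these was not called on the FPKM scale (-0.10, limma adjusted p = 0.145), where the groups overlapped. In JHU083 against Control Abcb1b had 0.20 (adjusted p = 0.0509). Among the alternatives that passed were that without JHU083 replicate 2 (0.24, adjusted p = 0.0499), DESeq2 (0.0489) and limma on log2(FPKM + 1) (0.0137), while 11 of 17 did not pass. With JHU083 replicate 3 alone the change was 0.27. Of the 50-base windows of Abcb1a, 15.5% recur in Abcb1b, and 18% of those of Abcb1b in Abcb1a, so how the counting divided shared reads bears on both. An antisense gene also covers 10.1% of the exonic bases of Abcb1a, and whether counting used strand is not given in the sources used here. Abcb4, the phosphatidylcholine transporter of bile, had means of 1.32, 1.44 and 1.22 FPKM and no call (edgeR adjusted p = 0.119 in WGFT17 against Control and 0.0934 against JHU083), though both passed without WGFT17 replicate 3 (-0.34, adjusted p = 0.0281, and -0.37, 0.0248).

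Members of subfamily B that act in mitochondria or on heme precursors differed in both directions in WGFT17. Abcb6 (chromosome 1, 75171717 to 75180392), a porphyrin transporter, had FPKM of 1.67, 2.41 and 2.46 in the Control libraries, 2.45, 2.57 and 2.38 in those of JHU083 and 3.68, 4.07 and 3.83 in those of WGFT17. WGFT17 was apart, and Control replicate 1 lay below the other 8 libraries. The log2 change of Abcb6 was 0.71 in WGFT17 against Control (SE 0.133, adjusted p = 0.000848) and 0.63 against JHU083 (adjusted p = 0.00244). The annotated gene Gm29253 covers 55.2% of the exonic bases of Abcb6 on its strand, and it was listed at 1.37 FPKM in Control replicate 1 and at 0 to 0.24 in the other libraries. Abcb8, of the mitochondrial inner membrane, rose in WGFT17 from means of 6.12 and 6.97 to 8.53 FPKM (0.37 against Control, adjusted p = 0.000813, and 0.28 against JHU083, adjusted p = 0.00651). Abcb10, of the same membrane and needed for heme synthesis in red cell precursors, fell from 4.00 to 3.25 FPKM (-0.41, adjusted p = 0.00878), with 3.87 in JHU083. Neither of the 2 tested erythroid markers was called in any comparison, and 1 of the 6 listed was at 0 in all WGFT17 libraries. The part of erythroid RNA in the change of Abcb10 was not tested.

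The partners of these transporters in heme and iron-sulfur synthesis, 18 of them tested, were 1 higher and 2 lower in JHU083 against Control (median log2 change -0.13), 4 and 4 in WGFT17 against Control (0.01), and 4 and none in WGFT17 against JHU083 (0.12). These 3, 8 and 4 of 18 stand beside 24.0%, 58.0% and 44.7% of all genes called, and lie below those shares. Slc25a37 (mitoferrin-1, the mitochondrial iron importer) had 6.29, 8.73 and 19.7 FPKM, with 0.38 in JHU083 (edgeR adjusted p = 0.0309) and 1.54 in WGFT17 (adjusted p = 5.52e-07). Cpox, a heme synthesis enzyme that receives its substrate from the cytosol, had 2.09, 2.61 and 4.90 FPKM (1.12 in WGFT17, adjusted p = 3.45e-07). Alas1, which starts heme synthesis, fell in WGFT17 from 26.2 to 20.8 FPKM (-0.44, adjusted p = 0.00256). Tmem14c, a mitochondrial protein of heme synthesis, fell in JHU083 (-0.23, adjusted p = 0.0118), and Glrx5, an iron-sulfur carrier, was higher in WGFT17 than in JHU083 (0.56, adjusted p = 0.00468).

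In subfamily D, the peroxisomal fatty acid importers differed among themselves. Abcd3 (PMP70, which takes in branched and dicarboxylic acids) rose stepwise, with means of 8.20, 9.87 and 11.9 FPKM in Control, JHU083 and WGFT17. The log2 change came to 0.17 in JHU083 (SE 0.0525, edgeR adjusted p = 0.0357), 0.43 in WGFT17 against Control (adjusted p = 3.4e-05) and 0.26 between the drugs (adjusted p = 0.00181). The JHU083 call of Abcd3 was lost without Control replicate 2 or 3 (adjusted p = 0.128 and 0.103), without JHU083 replicate 1 or 2 (0.0925 and 0.105), and with JHU083 replicate 3 alone (0.10, adjusted p = 0.249). Abcd2, an importer of very long and polyunsaturated fatty acids, had means of 1.43, 1.93 and 1.87 FPKM, and its changes of 0.34 in JHU083 (adjusted p = 0.0351) and 0.28 in WGFT17 (adjusted p = 0.0378) did not differ from each other by the test (-0.06, SE 0.102, adjusted p = 0.653). The JHU083 call of Abcd2 was lost without Control replicate 2 or 3 or JHU083 replicate 2 or 3 (adjusted p of 0.0594 to 0.121). With JHU083 replicate 3 alone the change of Abcd2 was 0.38 (adjusted p = 0.0772). The WGFT17 call was lost without Control replicate 2 or 3 or WGFT17 replicate 1 or 2 (0.0652 to 0.143). Abcd4, which serves cobalamin transport in lysosomes, had means of 1.18, 1.33 and 1.04 FPKM and -0.36 in WGFT17 against JHU083 (adjusted p = 0.0442), lost without any 1 of those 6 libraries but JHU083 replicate 2 (adjusted p of 0.0655 to 0.146). In FPKM these groups of Abcd4 overlapped.

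Of 16 tested peroxisomal partners, none was higher and 2 lower in JHU083 against Control (median log2 change -0.02), 1 higher and 4 lower in WGFT17 against Control (-0.11), and 2 higher and 2 lower between the drugs (-0.03). These 2, 5 and 4 of 16 stand beside 24.0%, 58.0% and 44.7% of all genes called, and lie below those shares. Scp2, the peroxisomal thiolase and sterol carrier, was lower in WGFT17 than in Control (-0.31, edgeR adjusted p = 0.000179) and than in JHU083 (-0.30, adjusted p = 0.000355). Ehhadh, the bifunctional enzyme of peroxisomal oxidation, went from 1.63 to 0.987 and 0.830 FPKM (-0.82, adjusted p = 0.00953, and -1.09, adjusted p = 0.000393). It is also a liver gene, and 8 of 8 hepatocyte markers were lower in JHU083 and 7 of 8 in WGFT17 than in Control (12.5% and 30.0% of all genes were). The part of liver RNA in its change was not tested. Pex19, the chaperone that brings ABCD proteins to the peroxisome, fell in both drugs (-0.19, adjusted p = 0.03, and -0.18, adjusted p = 0.0162), and Hsd17b4 was lower in WGFT17 than in JHU083 (-0.22, adjusted p = 0.0107).

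Subfamilies E and F, which act in translation, were high and moved by small amounts. Abce1, which splits ribosomes after termination, had means of 15.9, 17.7 and 19.7 FPKM. Its log2 change of 0.21 in WGFT17 against Control (SE 0.0659, edgeR adjusted p = 0.0191) was lost without Control replicate 2 or 3 or WGFT17 replicate 1 or 3 (adjusted p of 0.0584 to 0.0692). Against JHU083 Abce1 had 0.14 (adjusted p = 0.103), and 0.22 without JHU083 replicate 3 (adjusted p = 0.00411), the library in which it was highest of its group at 19.36 FPKM. Abcf2 had means of 37.1, 33.6 and 38.7 FPKM and was the 1 member lower in JHU083 than in Control (-0.24, SE 0.046, adjusted p = 0.00551). Its libraries held 35.42, 38.13 and 37.88 FPKM in the Control libraries, 34.63, 33.18 and 33.07 in those of JHU083 and 38.73, 38.72 and 38.55 in those of WGFT17. The JHU083 libraries were all below Control and the WGFT17 libraries all above it. The change in JHU083 was -0.26 with replicate 3 alone (adjusted p = 0.0144), and did not pass on the FPKM scale (-0.14, limma adjusted p = 0.0577). Abcf2 differed between the drugs by 0.19 (adjusted p = 0.00639) but not between WGFT17 and Control by the test (-0.05, adjusted p = 0.360). Abcf3 had means of 12.4, 13.2 and 15.1 FPKM and rose in WGFT17 by 0.17 against Control (adjusted p = 0.0244) and 0.18 against JHU083 (adjusted p = 0.0237). Both calls of Abcf3 were lost without WGFT17 replicate 2 (adjusted p = 0.0758 and 0.0775) or replicate 3 (0.0752 and 0.0724), and the first also without Control replicate 3 (0.0887). Abcf1, a factor of translation initiation, had means of 28.1, 32.9 and 33.5 FPKM and no call (adjusted p = 0.273, 0.155 and 0.905). Without JHU083 replicate 3, which held 27.62 FPKM where replicates 1 and 2 held 35.39 and 35.56, Abcf1 was higher in JHU083 than in Control (0.24, adjusted p = 0.00386).

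Among 17 tested partners in ribosome recycling and rescue, 1 was higher and 1 lower in JHU083 against Control (median log2 change -0.06), 7 higher and 2 lower in WGFT17 against Control (0.12), and 5 higher and 1 lower between the drugs (0.06). These 2, 9 and 6 of 17 stand beside 24.0%, 58.0% and 44.7% of all genes called, and do not exceed those shares. Gtpbp2, which rescues stalled ribosomes, had 9.55, 11.8 and 23.4 FPKM, with 0.22 in JHU083 (edgeR adjusted p = 0.0258) and 1.18 in WGFT17 (adjusted p = 2.77e-08). Eif5a, an elongation factor, fell in JHU083 from 190 to 149 FPKM (-0.44, adjusted p = 0.000552) and in WGFT17 to 174 (-0.23, adjusted p = 0.00192). Zfp598, the ligase that senses collided ribosomes, rose in WGFT17 (0.42, adjusted p = 0.00175), and Etf1, the release factor, was higher there than in JHU083 (0.24, adjusted p = 0.0022).

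In subfamily G the pump Abcg2 and its rodent relative Abcg3 fell in WGFT17. Abcg2 (BCRP, an exporter of drugs, urate and porphyrins; chromosome 6, 58584523 to 58695676) had FPKM of 2.33, 2.25 and 2.33 in the Control libraries, 2.25, 2.17 and 2.88 in those of JHU083 and 1.22, 1.17 and 1.14 in those of WGFT17. WGFT17 was below all others, and Control and JHU083 overlapped. Its log2 change was -1.07 in WGFT17 against Control (SE 0.111; 2.1-fold lower; edgeR adjusted p = 9.82e-06), -1.06 against JHU083 (adjusted p = 1.39e-05; -0.91 without JHU083 replicate 3) and -0.01 in JHU083 against Control (adjusted p = 0.947). Abcg3 (chromosome 5, 104935057 to 104982718) had FPKM of 2.99, 3.82 and 2.92 in the Control libraries, 4.93, 4.99 and 6.00 in those of JHU083 and 2.5, 1.96 and 1.75 in those of WGFT17. As with Abca9, the groups did not overlap, with JHU083 highest and WGFT17 lowest. The log2 change came to 0.62 in JHU083 against Control (SE 0.153; edgeR adjusted p = 0.0153), -0.76 in WGFT17 against Control (adjusted p = 0.00156) and -1.37 between the drugs (2.59-fold lower in WGFT17; adjusted p = 2.5e-05). The JHU083 call of Abcg3 was lost without Control replicate 1 (0.56, adjusted p = 0.0525) or Control replicate 3 (0.55, adjusted p = 0.0646), and with JHU083 replicate 3 alone the change was 0.80 (adjusted p = 0.0174). Abcg2 and Abcb1a are also known from endothelium. Of 4 tested endothelial markers, 3 were lower and 1, Vwf, higher in WGFT17 than in Control and than in JHU083, and none was called in JHU083 against Control. Of all genes, 58.0%, 44.7% and 24.0% were called in these comparisons. Pecam1 stood at 1.62 to 2.26 FPKM in Control, 2.07 to 2.45 in JHU083 and 0.75 to 0.84 in WGFT17, and none of the 7 listed was at 0 in a whole group. Abcg2 fell with those 3 markers and Abcb1a rose against them, and the part of endothelial RNA in either was not tested.

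The 19 members under the minimum were low in all groups, and several are known from other tissues. Abcb11, the bile salt export pump of hepatocytes, had 0.90, 0.90 and 0.87 FPKM in the Control libraries, 0.16, 0.12 and 0.51 in those of JHU083 and 0.20, 0.29 and 0.19 in those of WGFT17. Abcc2 (MRP2, of the bile canaliculus) had 0.46, 0.47 and 0.40, then 0.18, 0.08 and 0.23, then 0.21, 0.16 and 0.15. In both genes JHU083 replicate 3 was the highest of its group, as it was for the hepatocyte sum given above, whose levels moved with them. Abcc6, Abcg5 and Abcg8, also of liver, had Control means of 0.153, 0.187 and 0.130 FPKM and means of 0.0933 or less in both drug groups. Abca4, the retinoid transporter of photoreceptors, had 0.07, 0.05 and 0.06 FPKM in Control and 0.02, 0.01 and 0.06 in JHU083, with replicate 3 again at the Control level, and 0.05, 0.02 and 0.01 in WGFT17. Abcc9, the channel subunit of muscle and pericytes, had means of 0.187, 0.160 and 0.0267 FPKM, with JHU083 at 0.22, 0.04 and 0.22. Replicate 2, the low one, is also the JHU083 library with the lowest heart muscle sum. The part of RNA from these tissues was not tested. Abcb9, a lysosomal peptide transporter, had means of 0.743, 0.740 and 0.567 FPKM. The others, Abca12, Abca13, Abca17, Abcc8, Abcc12 and Abcg4, had no group mean above 0.0467 FPKM.

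Summed over members, the family stood at 289.5 to 292.2 FPKM per library in Control, at 324.3, 328.7 and 299.7 in JHU083 replicates 1, 2 and 3, and at 353.2 to 359.1 in WGFT17. Sums are given without a test. Subfamily C took the largest part of the difference of WGFT17 from Control, with means of 63.8 FPKM in Control, 67.7 in JHU083 and 98.3 in WGFT17, and its share of the family sum ran from 20.2% to 28.3% over the libraries. Subfamily B had 25.0, 27.9 and 33.1, and E, which is Abce1 alone, 15.9, 17.7 and 19.7. F, the largest in Control, had 77.6, 79.7 and 87.3. Subfamily A had 63.0, 73.0 and 71.3 and D 31.6, 34.3 and 34.2 FPKM, about as high in either drug. G was the only one highest in JHU083 in every library, with 13.9, 17.5 and 13.1. The low family sum of JHU083 replicate 3 came with 60.53 FPKM of C, 30.77 of D and 73.05 of F, all under every Control library, while its B, E and G sums were the highest of its group.

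**Figure D5:**
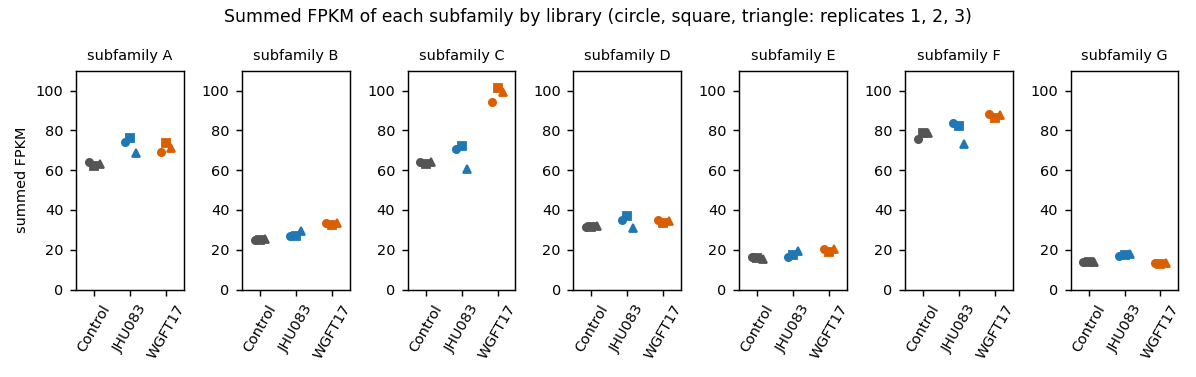
Summed FPKM of subfamilies A to G (y axis, from 0, same scale in all panels) in the 3 groups (x axis); circle, square and triangle are replicates 1, 2 and 3. Subfamily C reaches 94.2 to 102 in WGFT17 and 60.5 to 72.0 elsewhere, and JHU083 replicate 3 (triangle) lies below its group in A, C, D and F.

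Genes whose levels ran closest to the sterol exporters were found by Pearson's r of log2(FPKM + 1) over the 9 libraries, which share depth and group differences. For Abca1 they were Gbgt1 (r of 0.978), Itga9 (0.959), Nsmce4a (0.951), Gm10075 (0.940) and Gm16091 (0.934). For Abcg1 they were Fbxo32 (0.981), Tyk2 (0.972), Ptk2b (0.967), Fam160b2 (0.958) and E2f3 (0.956). Gbgt1 had means of 6.04, 7.83 and 5.65 FPKM in Control, JHU083 and WGFT17, the order of Abca1, and Tyk2 had 8.82, 11.3 and 11.5, the order of Abcg1. These values describe 9 libraries only. ABC genes whose symbols the name rule leaves out, the peptide transporter genes Tap1 and Tap2, were taken with their chaperones Tapbp and Tapbpl. All 4 were higher in WGFT17 than in Control (28.0% of all genes were; median log2 change 0.34), 2 were higher than in JHU083 (20.4% of all genes; 0.22), and none was called in JHU083 against Control by edgeR (0.12; the smallest adjusted p was 0.146). Tap2 had 11.6, 13.8 and 17.9 FPKM (0.52 in WGFT17 against Control, adjusted p = 0.000298), Tap1 had 8.35, 9.39 and 11.2 (0.32, adjusted p = 0.00119), and Tapbpl had 6.01, 7.50 and 8.32 (0.36, adjusted p = 0.0129).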

How the data were processed

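Poly(A) RNA of 9 libraries was sequenced as stranded pairs of 150 bases, per the labels' protocols. Tools listed without roles in the submitters' processing notes are StringTie 2.1.6, HISAT2 2.2.1, cutadapt 1.9, edgeR and DESeq2, beside the build mm9. The deposited table holds FPKM, which the authors scaled to transcript length and library depth. It also holds each gene's estimated count as deposited by the authors, made by a step not given in the sources used here, a whole number in which 1 read pair gives about 4, so rounding changed nothing. Its coordinates equal GENCODE M21 (GRCm38) for 90.3% of 28926 matched genes and for 37 of the 46 members, so positions are GRCm38. Columns were matched to samples by the labels' descriptions.

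Genes with a mean of at least 1 FPKM were tested by edgeR 4.0.16 quasi-likelihood (TMM factors, all 9 libraries in 1 fit, R 4.3.3), after a test on simulated data. P-values were adjusted by Benjamini-Hochberg over all tested genes in each comparison. SEs are those of the log2 changes, and SDs those of FPKM. Alternatives used limma 3.58.1, DESeq2 1.42.0, other scalings and filters, and fewer libraries.

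Members, the 7 partner lists and 11 marker lists were chosen with earlier results of these data known. Given in full, per library, were Abca1, Abcg1, Abcc1 and members called with an absolute log2 change of at least 0.5. Abca8b, Abcf2, Abcb11, Abcc2 and Abca4 were given so after their values were seen. Of each partner list, called genes were named from those with the smallest adjusted p, up to 3 a comparison. Ltc4s, Alox5 and Alox5ap were named outside it, after their values were seen. Promoters and motifs used RefSeq starts (GRCm38.p6). Some members and listed genes enter the counts and sums but are not reported here one by one.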

Additional observations from a re-analysis of the deposited data

Results flagged for a closer look

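In 3 of the 27 tested members every JHU083 library lay on one side of all Control libraries in FPKM and every WGFT17 library on the other side. They were picked by that rule, and the share of all tested genes that meets it was not counted. The rule itself sets a gap between the drugs. The difference between the drugs passed edgeR's quasi-likelihood test in each, but on the same libraries, so this is no separate support. For Abca9 the log2 difference of WGFT17 from JHU083 was -1.20 (adjusted p = 5.57e-08), with a range over the alternatives of -1.24 to -1.01. For Abcg3 it was -1.37 (adjusted p = 2.5e-05; -1.56 to -1.04). For Abcf2 it was 0.19 (adjusted p = 0.00639). Its change in WGFT17 against Control did not pass the count test and was -0.05, below Control as in JHU083 (-0.24). The opposite sides of Abcf2 thus hold in FPKM only.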

How the results depend on the processing

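Of 1404 values of single members under alternatives, 1279 kept their side of the threshold, 90 were no longer called and 34 became called. A reversal was counted only where a called value was involved, and there was 1: Abca7 in JHU083 against Control, -0.21 with JHU083 replicate 3 alone. Values never called could change sign within the 1279, as Abca3 did in JHU083 against Control (0.05, lowest -0.04). Of 49 calls, 32 held at an adjusted p under 0.05 in every alternative fit that gave the member a value. The threshold of 0.01 was not part of that tally, and members under a mean of 5 FPKM had no value in the fit with that minimum. For JHU083 against Control, 7 members were called. That count was 4 with only the 2 groups, 4 with the replicate number as a block (replicate block), 3 at an adjusted p under 0.01, 11 (6 higher, 5 lower) with JHU083 replicate 3 alone, and 4 (without Control replicate 2 or 3) to 8 (without JHU083 replicate 3) when 1 library was left out. For WGFT17 against JHU083, 20 were called (5277 of all genes), and 13 at a mean of at least 5 FPKM (3305), where fewer members and genes are tested. The range without 1 library was 17 to 20 (4471 to 5713 of all genes). For WGFT17 against Control, with 22 calls (6837 of all genes), that range was 17 to 19 (6007 to 6327). The block gave 18 calls in WGFT17 against Control (6530 of all genes) and 19 between the drugs (4907). Libraries of the same number correlated at -0.0338 to 0.161 in their deviations from the group means, and those of different number at -0.146 to 0.133. The numbers were not taken as pairs because the labels do not say that they mark a shared animal or day. Where JHU083 replicate 3 stands alone, its spread is assumed to be that of the other groups. Counts divided by 4, an alternative chosen after the data were seen, gave the same 7, 22 and 20 calls in number (2916, 6866 and 5323 over all genes). Depth limits the 19 untested members.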
